A study of Zea mays with 18 samples.

Results

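Transcript levels of 3 maize male-sterility genes, ms7 (Zm00001d020680), ms9 (Zm00001d030678) and ms1 (Zm00001d036435), were followed in anthers with and without an active ZmCCT10 transgene. The genes were chosen by identifier, and all 3 were found among the 45578 genes in the deposited tables. Their names and products come from the list that chose them, since the tables carry identifiers without names. ms9 was expressed in every library and stood higher in transgenic than in control anthers at each stage. ms7 was near the limit of detection in every group, and ms1 gave 1 count in the whole series.

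Male-sterility loci of maize are known from mutants whose anthers shed no functional pollen. Many of them act in the tapetum, the innermost layer of the anther wall, which feeds the developing microspores and supplies material for the pollen wall. ms7 encodes a PHD-finger protein, and the related MS1 gene of Arabidopsis acts late in tapetal development and in formation of the pollen wall. ms9 encodes a transcription factor of the R2R3-MYB family. ms1 encodes LBD30, a protein of the plant-specific LOB-domain family of transcriptional regulators.

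Plants carrying active ZmCCT10, here ZmCCT(+), were set against non-transgenic control plants, here ZmCCT(-), at the anther stages S3-4, S5-6 and S7. Each of the 6 groups had 3 libraries, 18 in all. ZmCCT10 is a CCT-domain protein best known as a repressor of flowering under long days. The labels do not give the promoter of the transgene, the number of events, the parental line, or plant age. They also do not say that replicate libraries are separate plants, so p-values reflect library-to-library spread that could be technical. Total counts lay between 14846974 and 23652182 per library. The 3 S3-4 ZmCCT(+) libraries stood apart from the rest: across genes, their log2 CPM (counts relative to library size, scaled here by the TMM method) correlated at 0.770 to 0.855 with the other 15 libraries, which correlated at 0.930 to 0.989 between groups. Their TMM factors were 0.845 to 0.854, against 0.961 to 1.08 in the others. ZmCCT10 itself and markers of tapetum, meiotic cells, early somatic anther cells or green tissue were not analysed here, because no source used here pairs their names with the identifiers.

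ms9 lies on the minus strand of chromosome 1 from 152667851 to 152669369, ms7 on the plus strand of chromosome 7 from 127860533 to 127863145, and ms1 on the plus strand of chromosome 6 from 88337769 to 88338425. The coordinates are copied from the deposited tables. No source used here names their genome build. No other listed gene overlaps any of the 3.

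The MYB gene ms9 was higher in ZmCCT(+) than in ZmCCT(-) anthers at S3-4, S5-6 and S7, by 3.38-fold, 1.37-fold and 1.81-fold. At S3-4 its raw counts were 473, 526 and 598 in the ZmCCT(+) libraries and 155, 179 and 197 in the ZmCCT(-) libraries, which had similar totals. That is 31.3, 35.0 and 36.0 CPM in ZmCCT(+), against 9.02, 10.6 and 10.7 CPM in ZmCCT(-). The lowest transgenic library lay 20.6 CPM above the highest control library. For this and every later statement on overlap of libraries, the share of all tested genes that separate alike was not computed. Separation is thus not read as particular to ms9. Group levels were 34.1 ± 2.50 CPM in ZmCCT(+) and 10.1 ± 0.913 CPM in ZmCCT(-) (SD, n = 3 each), and the log2 fold change was 1.76 ± 0.085 (SE, edgeR quasi-likelihood test, Benjamini-Hochberg adjusted p = 4.74e-33). On the deposited TPM scale, which accounts for transcript length, ms9 had 37.4 ± 1.81 TPM in ZmCCT(+) and 12.4 ± 1.38 TPM in ZmCCT(-) (SD, n = 3 each). The ZmCCT(+) mean was 3.03 times the ZmCCT(-) mean. At this stage 40.4% of the 24694 genes tested were called higher in ZmCCT(+) at an adjusted p below 0.05, so the call itself does not set ms9 apart. Its log2 fold change was above that of 89.4% of the tested genes, and larger in size, whatever the sign, than that of 78.5%. In whole anthers, a larger share of cells that express a gene and more RNA of it per cell cannot be told apart.

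At S5-6 the difference was the smallest of the 3. ms9 had 16.5, 15.4 and 16.9 CPM in the ZmCCT(+) libraries and 12.2, 11.3 and 12.0 CPM in the ZmCCT(-) libraries. The groups did not overlap, with 3.17 CPM between the lowest transgenic and the highest control library. The log2 fold change was 0.45 ± 0.087 (SE, edgeR adjusted p = 4.42e-06), and 29.8% of tested genes were called higher here. It was above that of 81.4% of tested genes, and larger in size than that of 62.0%. The call was lost when the spread between replicates was assumed to be 20% (adjusted p = 0.190, with a range of 1.38e-06 to 0.190 over all alternatives). The spread estimated by edgeR from these libraries was low. Its biological coefficient of variation, which leaves out counting error, was 3.20% common to all genes, with a median of 4.39% per gene. The assumed 20% is on that same measure. With counting error included, the coefficient of variation of ms9 CPM within groups was 3.98% to 9.55%.

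At S7 ms9 had 21.0, 19.1 and 17.4 CPM in ZmCCT(+), against 10.7, 11.2 and 9.83 CPM in ZmCCT(-). Again every transgenic library lay above every control library, and how common this was among all tested genes was not computed. The log2 fold change was 0.85 ± 0.089 (SE, edgeR adjusted p = 6.53e-14), which exceeded that of 95.4% of tested genes, while 24.1% were called higher. In size it was larger than that of 87.4% of tested genes. When limma-trend was run on log2(TPM + 1), 36.1% of genes were called higher at S7, and ms9 kept its call and direction. Genes called higher in ZmCCT(+) at all 3 stages, as ms9 was, made up 3.91% of those tested.

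**Figure D1:**
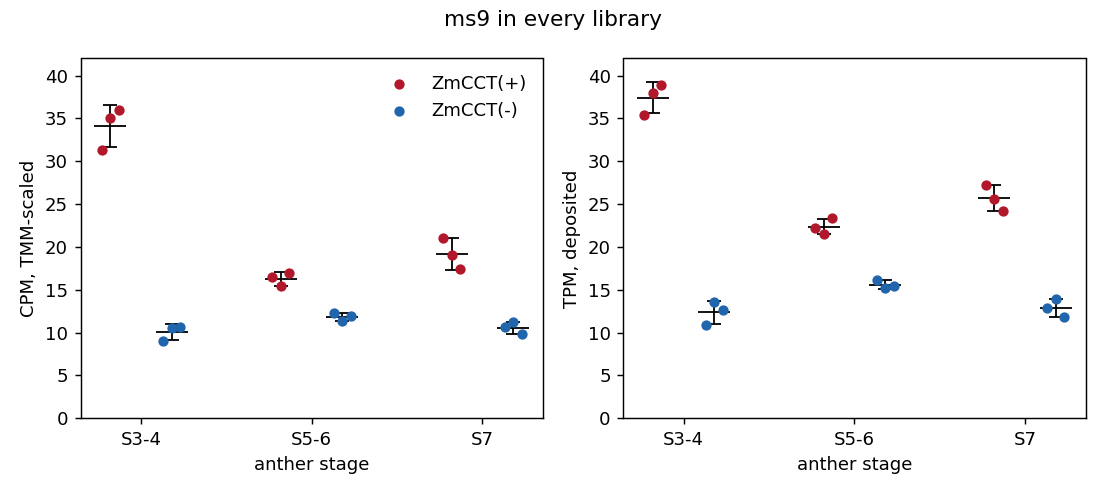
Level of ms9 in each of the 18 libraries by anther stage, as TMM-scaled CPM (left) and as deposited TPM (right). Points are libraries, red for ZmCCT(+) and blue for ZmCCT(-), and black marks are the mean and SD of 3 libraries. The ZmCCT(+) points lie above the ZmCCT(-) points at each stage on both scales, and are highest at S3-4, between 31.3 and 36.0 CPM.

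The course over the stages also differed between the genotypes. In ZmCCT(+) anthers ms9 stood at 34.1 ± 2.50 CPM at S3-4, 16.3 ± 0.773 at S5-6 and 19.2 ± 1.83 at S7 (SD, n = 3 each). The S3-4 libraries did not overlap those of either later stage. From S3-4 to S5-6 it fell by 1.08 on the log2 scale (SE 0.076, edgeR adjusted p = 7.21e-23), where 43.8% of tested genes were called lower. Over the whole span to S7 it fell by 0.84 (SE 0.076, edgeR adjusted p = 3.91e-17), against 42.6% called lower. In size, these falls exceeded the changes of 53.0% of tested genes in the first step and 51.9% over the span. Limma-trend gave smaller changes, of -0.72 on log2(TPM + 1) and -0.74 on log2(TPM + 0.1) for the first step, and of -0.53 and -0.54 over the span (adjusted p = 3.36e-06 or lower). From S5-6 to S7 it rose by a log2 fold change of 0.24 ± 0.081 (SE, edgeR adjusted p = 0.00806), against 31.4% called higher. This small rise was not called without S5-6 ZmCCT(+) replicate 2 (adjusted p = 0.0582) or S7 ZmCCT(+) replicate 1 (0.0915), nor with the assumed spread (0.550), and its adjusted p ranged from 0.00254 to 0.550 over all alternatives in edgeR, DESeq2 and limma.

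In ZmCCT(-) anthers ms9 was almost level, at 10.1 ± 0.913 CPM at S3-4, 11.8 ± 0.472 at S5-6 and 10.6 ± 0.684 at S7 (SD, n = 3 each). The S5-6 libraries, at 11.3 CPM or more, overlapped neither those of S3-4 nor those of S7, which reached 11.2 CPM. The S3-4 and S7 libraries overlapped. The first step gave a log2 fold change of 0.23 ± 0.097 (SE, edgeR adjusted p = 0.0338), beside 27.9% of genes called higher. It was not called without S3-4 ZmCCT(-) replicate 1 (adjusted p = 0.205), S5-6 ZmCCT(-) replicate 1 (0.112) or replicate 3 (0.0647), nor by the DESeq2 test (0.0542) or with the assumed spread (0.663), with a range of 0.00110 to 0.663 over all alternatives. From S5-6 to S7 the log2 fold change was -0.16, with a 95% interval of -0.35 to 0.025 (edgeR adjusted p = 0.163), while 42.4% of genes were called in either direction. Limma-trend on log2(TPM + 1) called this step (log2 fold change -0.26, adjusted p = 0.00752, range over all alternatives 0.00752 to 0.921). Over the whole span the log2 fold change was 0.069, with a 95% interval of -0.13 to 0.27 (edgeR adjusted p = 0.556), and 64.7% of genes were called in either direction.

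The difference between the genotypes in these steps was tested directly. Between S3-4 and S5-6 the change of ms9 in ZmCCT(+) was lower than that in ZmCCT(-) by 1.31 on the log2 scale, a difference of -1.31 ± 0.12 (SE, edgeR adjusted p = 2.12e-16), where 39.3% of genes were called lower. Between S5-6 and S7 it was higher by 0.40 ± 0.12 (SE, edgeR adjusted p = 0.00390), where 30.3% were called higher. That second difference involves no S3-4 library, and it was kept without the S3-4 ZmCCT(+) libraries in the fit and when any of the 12 libraries compared was left out, with adjusted p up to 0.0218. It was lost with the assumed spread of 20% (0.491, range 0.000917 to 0.491 over all alternatives). Over the whole span the difference was -0.91 ± 0.13 (SE, edgeR adjusted p = 7.34e-10), beside 38.8% called lower. In size, these differences exceeded those of 63.9% (first step), 46.3% (second step) and 56.2% (span) of tested genes. On the TPM scale the span difference was smaller, at -0.58 on log2(TPM + 1) and -0.60 on log2(TPM + 0.1) (limma-trend adjusted p = 4.98e-05 and 7.53e-05). Limma-voom on TMM-scaled counts gave -0.91.

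**Figure D2:**
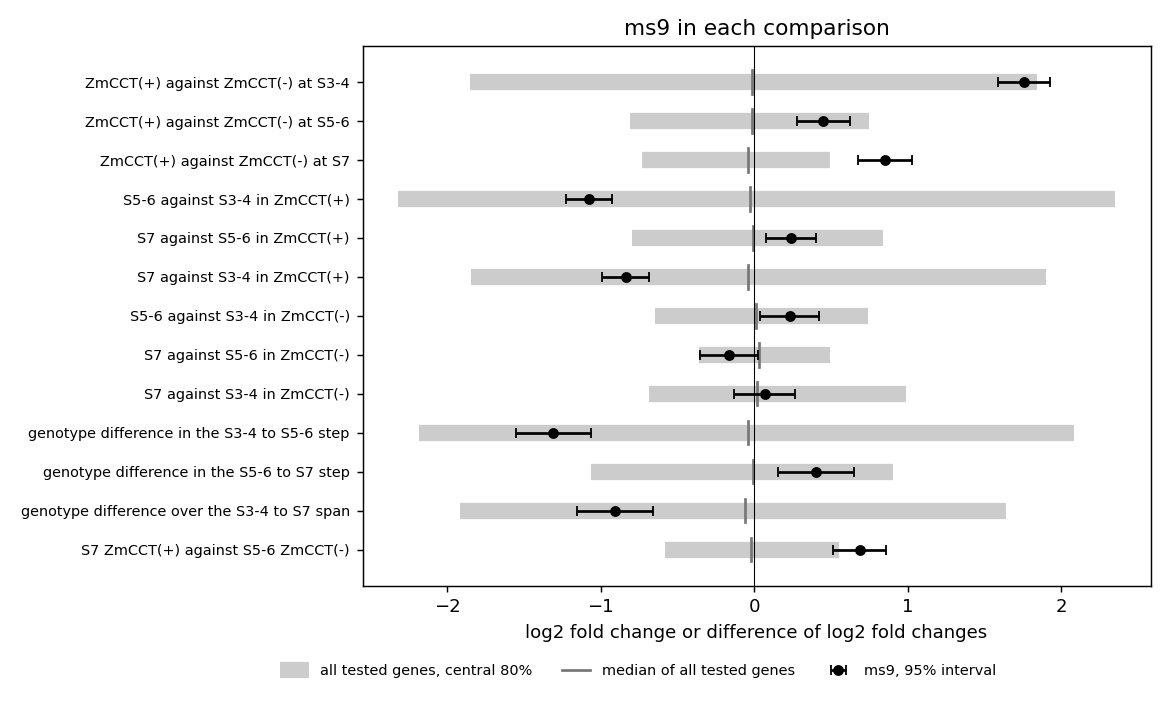
Log2 fold change of ms9 in each comparison, or the difference between log2 fold changes for the genotype differences (points, with 95% intervals), over the central 80% of all 24694 tested genes (grey bars) and their median (grey lines). The points for the genotypes at S7, at 0.85, and for S7 ZmCCT(+) against S5-6 ZmCCT(-), at 0.69, lie outside their grey bars, and the changes of ZmCCT(-) anthers lie near 0.

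Ordered by level, S3-4 ZmCCT(+) came first, followed by S7 ZmCCT(+), S5-6 ZmCCT(+), S5-6 ZmCCT(-), S7 ZmCCT(-) and S3-4 ZmCCT(-), on both the CPM and the TPM scale. Among the ZmCCT(-) groups, every S5-6 library lay above every S7 and S3-4 library on both scales, while S7 and S3-4 overlapped. In edgeR neither S5-6 and S7 nor S7 and S3-4 differed past the threshold. S7 ZmCCT(+) exceeded even S5-6 ZmCCT(-), the highest control group, by a log2 fold change of 0.69 ± 0.086 (SE, edgeR adjusted p = 9.26e-11), in a comparison where 20.1% of genes were called higher. Among the genes with a TPM above 0 in a library, ms9 lay at percentiles 77.7 to 79.8 in S3-4 ZmCCT(+), 65.3 to 66.6 in S5-6 ZmCCT(+), 67.1 to 69.7 in S7 ZmCCT(+) and 50.8 to 58.6 in the 9 control libraries.

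The PHD-finger gene ms7 was barely detected in either genotype. Its raw counts were 7, 3 and 2 in S3-4 ZmCCT(+), 1, 0 and 1 in S5-6 ZmCCT(+) and 2, 0 and 1 in S7 ZmCCT(+). In ZmCCT(-) they were 3, 1 and 2 at S3-4, 1, 0 and 2 at S5-6 and 1, 0 and 1 at S7. All 28 counts together amount to 0.0846 CPM of the unscaled totals, with an exact Clopper-Pearson 95% interval of 0.0562 to 0.122 that covers counting error alone. No library exceeded 0.273 TPM, where ms9 ranged from 10.9 to 38.9 TPM. Of the 43789 listed genes with a Zm00001d identifier, 37.9% had as few counts as ms7 or fewer.

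ms7 did not pass the filter on low counts, so it was tested in a fit without that filter. The genotypes did not differ past the threshold at any stage. At S3-4 the pooled counts were 12 in ZmCCT(+) and 6 in ZmCCT(-) (edgeR adjusted p = 0.324). Relative to total counts, the ZmCCT(+) level was 1.99 times the ZmCCT(-) level, and counting error alone allowed 0.691 to 6.46 times at 95%. The libraries of the genotypes overlapped. At S5-6 there were 2 counts in ZmCCT(+) and 3 in ZmCCT(-), and at S7 there were 3 in ZmCCT(+) and 2 in ZmCCT(-) (edgeR adjusted p = 0.802 and 0.847). These counts leave wide room for a difference in either direction.

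More of the ms7 counts came from the S3-4 anthers of both genotypes. In ZmCCT(+) the fitted log2 fold change from S3-4 to S5-6 was -2.77 ± 1.11 (SE, edgeR adjusted p = 0.0209, in a fit that called 32.5% of 35122 genes lower), the one ms7 call among 13 comparisons. It rests on 12 counts at S3-4 and 2 at S5-6, and the S3-4 level was 6.49 times the S5-6 level with a 95% counting interval of 1.44 to 59.7. The call was lost by the DESeq2 test (adjusted p = 0.0566), without S3-4 ZmCCT(+) replicate 1, which held 7 of the 12 counts (0.176), and without S5-6 ZmCCT(+) replicate 2 (0.110), with a range of 0.00325 to 0.176 over all alternatives. In ZmCCT(-) there were 6 counts at S3-4 and 3 at S5-6, and the step was not called (edgeR log2 fold change -1.05, adjusted p = 0.534). The difference between the genotypes in this step did not pass either (-1.72 ± 1.75 SE, edgeR adjusted p = 0.455). From S3-4 to S7 the log2 fold change was -2.06 in ZmCCT(+) and -1.49 in ZmCCT(-) (edgeR adjusted p = 0.0827 and 0.373). The ZmCCT(+) span was called by limma-voom (adjusted p = 0.0254), by limma-trend on log2(TPM + 1) (0.0210) and log2(TPM + 0.1) (0.0236), with the assumed spread (0.0270) and without S7 ZmCCT(+) replicate 1 (0.0492), with a range of 0.0210 to 0.383 over all alternatives.

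ms1, the LBD30 gene, gave 1 count in S7 ZmCCT(+) replicate 2 and none in the other 17 libraries. The pooled S7 ZmCCT(+) level was 0.0195 CPM of the unscaled total, with an exact 95% interval of 0.000495 to 0.109, which includes the limits that no count allows elsewhere. In the 5 groups without a count, the upper limits of the same exact 95% interval were 0.0619 to 0.0687 CPM. A limit of 3 counts, which is a different measure, corresponds to 0.0504 to 0.0559 CPM in these groups. In the fit without the filter, the genotypes at S7 did not differ past the threshold (edgeR adjusted p = 0.517), and a test on 1 count has next to no power. The single value of 0.120 TPM in S7 ZmCCT(+) replicate 2 is that same count. With 24.3% of Zm00001d genes at 1 count or fewer and 9117 of 43789 at 0, so low a total was common in these tables.

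**Figure D3:**
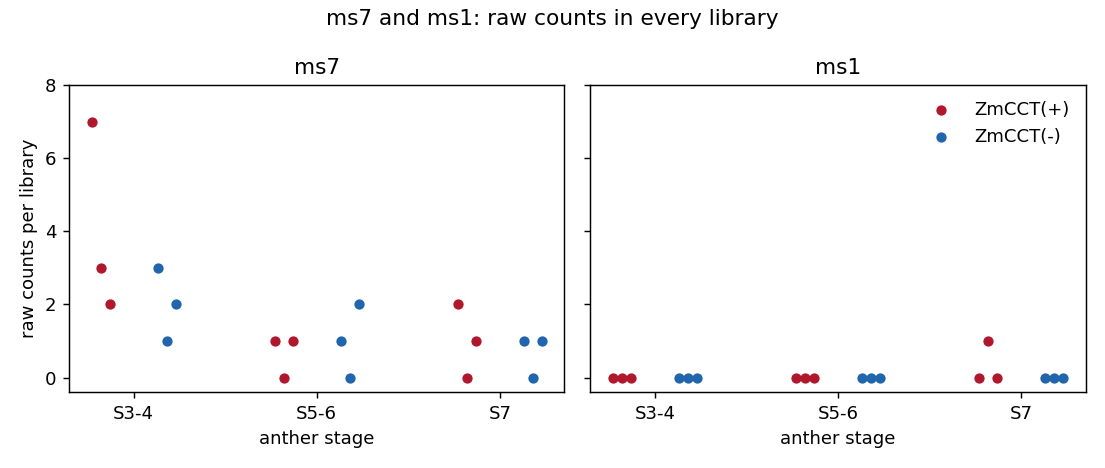
Raw counts of ms7 (left) and ms1 (right) in each of the 18 libraries by anther stage. Points are libraries, red for ZmCCT(+) and blue for ZmCCT(-). ms7 lies between 0 and 7 counts, with its highest values at S3-4, and ms1 lies at 0 in all libraries but S7 ZmCCT(+) replicate 2.

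The nearest listed gene on each side was read for each of the 3 loci. Beside ms7, Zm00001d020679 ends 689 bases before it and Zm00001d020681 starts 16274 bases after it, and both were expressed in all groups. Zm00001d020679 had 1.68 ± 0.332 CPM in S3-4 ZmCCT(+) and 4.32 ± 0.191 CPM in S3-4 ZmCCT(-) (SD, n = 3 each), a log2 fold change of -1.36 (edgeR adjusted p = 3.23e-09). Zm00001d020681 went the other way, at 9.99 ± 0.460 CPM in S3-4 ZmCCT(+) and 3.17 ± 0.425 CPM in S3-4 ZmCCT(-) (log2 fold change 1.66, edgeR adjusted p = 5.06e-18). In edgeR 81.3% of all tested genes were called in either direction at S3-4. At S5-6 the log2 fold changes were 0.089 for Zm00001d020679 and 0.46 for Zm00001d020681 (edgeR adjusted p = 0.624 and 0.00226), and at S7 both were below 0, at -0.23 and -0.34 (edgeR adjusted p = 0.209 and 0.0326). ms7 itself had 7 counts or fewer per library. Counts of its neighbours do not show how well reads can be placed on ms7, which was not tested.

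Beside ms9, Zm00001d030677 lies 25293 bases away and was abundant, at 97.6 ± 2.12 CPM in S3-4 ZmCCT(+) and 84.0 ± 2.32 CPM in S3-4 ZmCCT(-) (SD, n = 3 each). Its log2 fold changes between genotypes were 0.22 at S3-4, 0.042 at S5-6 and -0.13 at S7 (edgeR adjusted p = 7.50e-07, 0.353 and 0.00293), far from those of ms9 in size. On the other side Zm00001d030679 had 84 counts in the whole series and was not tested. Beside ms1, Zm00001d036434 had 10 counts in all and Zm00001d036436 none, so its nearest neighbours were nearly or wholly silent as well. These nearest genes do not stand for the wider surroundings. Within 1 Mb on each side, 28 of 43 listed genes passed the filter near ms1, 26 of 37 near ms7 and 11 of 31 near ms9.

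The genes whose levels ran most like those of ms9 were picked by Pearson's correlation of log2 CPM over the 18 libraries, among 22092 tested genes with a mean of at least 1 CPM. They were Zm00001d016049 (r = 0.978), Zm00001d007319 (0.978), Zm00001d036825 (0.977), Zm00001d035434 (0.976) and Zm00001d002035 (0.975), and 67 genes reached 0.95. No source used here gives these identifiers a name. The libraries share stage and genotype, and the 3 S3-4 ZmCCT(+) libraries weigh heavily. Over the other 15 libraries, the 5 correlations were 0.946, 0.933, 0.970, 0.937 and 0.920.

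Likeness of pattern did not mean likeness of size. Zm00001d036825 had 139.5 CPM in S3-4 ZmCCT(+) and 82.2 in S3-4 ZmCCT(-), a far smaller ratio than that of ms9. Zm00001d007319 had 103.9 CPM in S3-4 ZmCCT(+) and 18.1 in S3-4 ZmCCT(-), and Zm00001d016049 had 29.5 CPM in S3-4 ZmCCT(+) and 13.4 in S3-4 ZmCCT(-). Zm00001d002035 had the widest range, with 155.1 CPM at S3-4, 3.53 at S5-6 and 12.1 at S7 in ZmCCT(+), against 0.821, 0.463 and 0.210 CPM at the same stages in ZmCCT(-). The 5 genes were picked for likeness to ms9, so a shared course follows from the choice and is no separate result. Like ms9, all 5 had a transgenic mean that was highest at S3-4 and lowest at S5-6. For Zm00001d016049 the S5-6 and S7 means in ZmCCT(+) were nearly equal, at 19.76 and 19.88 CPM. For ms7 the highest correlation was 0.850 and none reached 0.95, and since it had 28 counts in all, no gene was named as like it. For ms1 no correlation was computed.

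**Figure D4:**
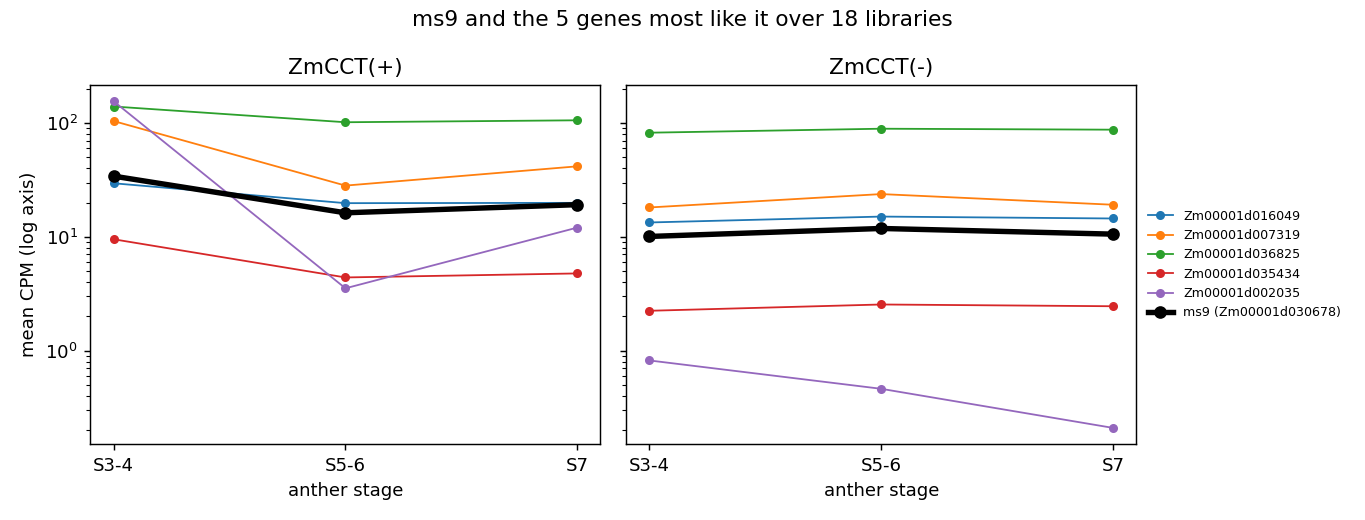
Mean CPM of ms9 (black) and of the 5 genes with the highest correlation to it over 18 libraries, by anther stage on a log axis, in ZmCCT(+) (left) and ZmCCT(-) (right). Points are means of 3 libraries. In ZmCCT(+) every line is highest at S3-4 and lowest at S5-6, and ms9 is nearly flat in ZmCCT(-), between 10.1 and 11.8 CPM.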

How the data were processed

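Total RNA of anthers was sequenced as paired-end reads of 150 bases, per the labels' protocols. The deposited count tables hold raw counts per gene, not normalised by the authors. The deposited tables per library give TPM, scaled by the authors, and coverage, a signal of mean depth per base, per the file headers. Bowtie2, StringTie and DESeq2 are named in the submitters' processing notes. No source used here names versions, the genome build, strand counting or the handling of reads shared between paralogs. Columns of the count tables were given to samples by stage, genotype and replicate number, and 18 of 18 followed the coverage of their own sample best within their group.

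Counts were filtered with filterByExpr of edgeR 4.0.16 in R 4.3.3 (minimum count 10, minimum total 15), which kept 24694 genes with 99.9% of the counts. All 18 libraries entered 1 fit with 6 groups, TMM scaling and the robust quasi-likelihood F test. P-values were adjusted by Benjamini-Hochberg over all genes tested, with a threshold of 0.05. The SE was derived by dividing the size of the log2 fold change by the root of F. ms7 and ms1 did not pass the filter. Both were tested without it, and ms1 with its 1 count is given mainly by its counts. The scripts were tested on simulated counts in which a small set of well-counted genes was changed, in S7 ZmCCT(+) alone. That setting covers neither genes with counts as low as ms7 and ms1 nor groups that differ in as many genes as these.

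The members, lists and alternatives were chosen with earlier results of these data known. Genes beside the members were named by rule: the 5 highest correlations and the nearest listed gene on each side. A list of 24 anther gene symbols was drawn up for the pathway, and 0 were paired with a listed identifier, since 0 of 43789 Zm00001d identifiers occur in the gene table used here. Alternatives were DESeq2 size factors and the DESeq2 1.42.0 test, limma 3.58.1 (voom, and trend on TPM with pseudocounts of 1 and 0.1), no filter, a filter of 50 counts in 3 libraries, a replicate block, only the libraries compared, no S3-4 ZmCCT(+) libraries, a spread of 20% with edgeR's likelihood ratio test, and leaving out each library.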

Additional observations from a re-analysis of the deposited data

Results flagged for a closer look

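Differences of ms9 between genotypes in the course over the stages were picked out because the test of the difference itself passed. The change from S3-4 to S5-6 was lower in ZmCCT(+) than in ZmCCT(-) by a difference of -1.31 on the log2 scale. The change from S5-6 to S7 was higher in ZmCCT(+) by 0.40, and the change over the whole span was lower in ZmCCT(+), a difference of -0.91. The first and the last use the S3-4 ZmCCT(+) libraries, which stood apart from all others across genes. In the first step 76.9% of all tested genes were called, in the S5-6 to S7 step 60.5%, and over the span 74.0%. The S5-6 to S7 difference lost its call with the assumed spread of 20% (edgeR likelihood ratio test, adjusted p = 0.491).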

How the results depend on the processing

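For ms9, 7 of 13 comparisons kept direction and side of the threshold under every alternative run, and 221 of 234 alternative values in all did. With an assumed spread of 20% and the likelihood ratio test, which changes spread and test together, the calls were lost for the genotype difference at S5-6 (0.46), for S7 against S5-6 in ZmCCT(+) (0.24), for S5-6 against S3-4 in ZmCCT(-) (0.23) and for the genotype difference in the S5-6 to S7 step (0.40). The DESeq2 test lost S5-6 against S3-4 in ZmCCT(-) (0.24). Limma-trend on TPM called S7 against S5-6 in ZmCCT(-), at -0.26 with a pseudocount of 1 and -0.28 with 0.1. The cause was not tested. Leaving out 1 library gave 0.17 to 0.30 for S7 against S5-6 in ZmCCT(+), 0.16 to 0.28 for S5-6 against S3-4 in ZmCCT(-) and -0.0030 to 0.12 for S7 against S3-4 in ZmCCT(-).

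For ms7 without the low-count filter, S5-6 against S3-4 in ZmCCT(+) was lost by the DESeq2 test (-3.00), and S7 against S3-4 in ZmCCT(+) was called by limma-voom (-1.91), limma-trend on TPM (-0.17 and -0.99), the assumed spread (-2.06) and without S7 ZmCCT(+) replicate 1 (-2.99). S7 ZmCCT(+) against S5-6 ZmCCT(-) turned sign with limma-trend (-0.0092 and -0.095). Leaving out 1 library gave -1.13 to 0.33 and -0.38 to 1.16 for the genotypes at S5-6 and S7, 0.44 to 1.52 for the genotypes at S3-4, -1.98 to -0.52 for the first step in ZmCCT(-), -2.25 to -0.79 for the genotype difference in that step, -3.19 to -2.09, -0.22 to 1.32 and -2.99 to -1.38 for the first step, the second step and the span in ZmCCT(+), -0.97 to 0.49 and -1.91 to -0.89 for the second step and the span in ZmCCT(-), 0.22 to 1.76 for the genotype difference in the second step, -1.50 to 0.11 for the genotype difference over the span and -0.83 to 1.04 for S7 ZmCCT(+) against S5-6 ZmCCT(-).

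Replicate numbers did not pair the libraries: deviations of same-numbered libraries correlated at -0.103 to 0.0859 over 45 pairs. With a replicate block no call of ms9 or ms7 changed, for example 1.76, 0.45 and 0.85 for ms9 between genotypes at the 3 stages. The share of genes called in either direction was 42.4% to 85.9% over the 13 comparisons and 2.26% to 67.9% with the assumed spread. With limma-trend on log2(TPM + 1) the share of calls that were higher was 64.4% against 44.3% between genotypes at S7, 60.8% against 48.1% for S7 against S3-4 in ZmCCT(+), 67.7% against 49.6% and 34.0% against 53.1% for the first and second step in ZmCCT(-), 58.4% against 47.5% for the genotype difference over the span and 53.9% against 43.3% for S7 ZmCCT(+) against S5-6 ZmCCT(-). The median of all genes lay at 0.20 for S7 against S3-4 in ZmCCT(+) on that scale, against -0.038 on the TMM scale, and ms9 kept its direction in each comparison on both. For ms7 and ms1, depth limits every statement.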

Other observations

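Counts and TPM of the 2 near-silent genes went together except in 3 libraries, where ms7 had 1 count and was listed at 0 TPM. No library had a TPM above 0 without a count.

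Within 1 Mb on each side, a span chosen after values were seen, ms1 had 43 listed genes, of which 28 passed the filter and 8 had no count in any library. For ms7 these numbers were 37, 26 and 4, and for ms9 31, 11 and 9. Near ms9, 5 of the 11 tested genes were called higher in ZmCCT(+) at S3-4, 2 at S5-6 and 4 at S7, beside 40.4%, 29.8% and 24.1% of all tested genes.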
